A study of Mus musculus with 9 samples.

Results

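The genes described here copy the genome in S phase. They are 37 named genes of the replication machinery, from the proteins that license origins to those that supply deoxynucleotides and rebuild chromatin behind the fork. Each was read at its probeset with the highest mean, and they are 37 of 19938 genes that the array annotation names. All 37 had a probeset, and all 37 passed the filter on low values.

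The samples were epithelial scrapings of the colon from male C57BL/6J mice aged 9 to 11 weeks. All ate a control diet in which fat gave 40% of the energy for a run-in of 1 week, and then received that diet with 0.2 µmol heme per g or continued without heme. Heme, the iron-bearing pigment of red meat, was given for 2, 4, 7 or 14 days, and control mice were taken at days 0, 2, 4, 7 and 14. RNA of 4 mice was pooled for each diet and day, except that the control pool of day 2 held 3 mice, and each pool went on 1 Affymetrix array. There were thus 4 heme pools and 5 control pools. Since each combination of diet and day was arrayed once, the p-values rest on how pools of different days differ, not on how animals differ. Levels are log2 values, differences are log2 differences of heme minus control, and limma was run over 14953 genes. A gene is called where its p, adjusted by Benjamini and Hochberg over those genes, is under 0.05.

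In the colon, DNA is copied near the crypt base, where progenitor cells divide before their daughters move up and mature. Origins are licensed in G1 when ORC, CDC6 and CDT1 load the ring of MCM2 to MCM7, the helicase that later unwinds DNA together with CDC45 and the GINS complex. The clamp PCNA, set on DNA by replication factor C, then tethers the polymerases, while ribonucleotide reductase, thymidylate synthase and thymidine kinase supply their substrates. Many of these genes are classic targets of E2F factors, which switch them on at entry into S phase.

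The pools were colon by their defining markers. Car1, carbonic anhydrase of surface colonocytes, averaged 13.41 in the heme pools and 13.37 in the control pools. Genes of the mature surface differed in both directions. Of 12 tested, 7 had a positive diet difference, with a median of 0.04. Only Aqp8, a water channel, was called for diet (difference 0.66, adjusted p = 0.0113). On day 14, 5 of the 12 were called higher (against 11.3% of all genes), among them Clca4a (difference 1.24), and 3 lower (against 15.8%), among them Slc37a2 (difference -0.85) and Car4 (difference -0.28). Their part in the levels of the replication genes was not tested. Exocrine pancreas genes averaged 9.36 in the heme pool and 8.84 in the control pool of day 2, against 5.39 to 5.50 in the other pools. Smooth muscle genes averaged 6.86 to 8.52 over the heme pools and 6.92 to 9.09 over the control pools, with the day 7 pool the highest of each diet. The heme pool of day 14 stood apart, as 4051 genes were called between it and the control pools. A scraping mixes cell types, so fewer cells of a type and less RNA per cell cannot be told apart in any value given here.

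Promoters are shown because replication genes are known targets of E2F factors, whose favoured letters can be looked for in them. RefSeq windows of GRCm38.p6, from 250 bases before to 50 after a gene's start, were found for 32 of the 37 genes. The letters TTTCCCGC, TTTCGCGC, TTTGCCGC or TTTGGCGC were searched on both strands, and overlapping matches were kept. They stood in the windows of 14 of the 32 genes (43.8%), against 704 of 27025 genes in all (2.6%). These 14 were Cdc6, Cdt1, Dnmt1, Lig1, Mcm3, Mcm5, Mcm6, Mcm7, Orc1, Pola1, Pold1, Pole2, Rfc3 and Uhrf1. The letters CCAAT stood in 20 of the 32 (62.5%), against 41.1% of all genes, and TTTGAA, the core of an element common in promoters of late cell cycle genes, stood in 4 (12.5%), against 20.2% of all genes.

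The 150 bases before the start are printed for 3 genes with the E2F letters, in capitals, and for 3 genes without them that had high diet differences. Of the 14 genes with the letters, Orc1 had the lowest diet difference (-0.09) and Mcm5 the highest (0.19), and Mcm6 had 0.01. Others of the 14, such as Cdt1, have no match within these 150 bases. The genes printed do not stand for their sets. Mcm6 (chr1:128359706-128359855, minus strand) holds 3 matches, the first 2 of them overlapping, which begin 110, 106 and 47 bases before the start. Orc1 (chr4:108579304-108579453, plus strand) holds 1 match beginning 27 bases before the start, and Mcm5 (chr8:75109359-75109508, plus strand) 1 match beginning 149 bases before it. The windows of Rrm2 (chr12:24708104-24708253, plus strand), Tk1 (chr11:117826015-117826164, minus strand) and Rfc5 (chr5:117389024-117389173, minus strand) hold none of these letters. For Orc1, Mcm5 and Tk1 the start used by the promoter table lies inside the annotated gene, downstream of its outermost start.
Mcm6: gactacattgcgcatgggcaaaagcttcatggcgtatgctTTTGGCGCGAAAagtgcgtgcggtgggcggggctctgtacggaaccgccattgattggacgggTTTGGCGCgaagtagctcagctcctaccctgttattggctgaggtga
Orc1: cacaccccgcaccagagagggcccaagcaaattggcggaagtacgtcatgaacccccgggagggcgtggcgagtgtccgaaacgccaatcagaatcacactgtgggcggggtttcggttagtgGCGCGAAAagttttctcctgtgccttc
Mcm5: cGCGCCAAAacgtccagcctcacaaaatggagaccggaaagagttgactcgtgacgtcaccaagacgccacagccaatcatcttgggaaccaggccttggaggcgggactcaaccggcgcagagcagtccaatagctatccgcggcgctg
Rrm2: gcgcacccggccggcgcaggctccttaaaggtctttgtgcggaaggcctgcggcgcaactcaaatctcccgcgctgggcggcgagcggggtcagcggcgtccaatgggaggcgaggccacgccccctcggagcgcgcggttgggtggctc
Tk1: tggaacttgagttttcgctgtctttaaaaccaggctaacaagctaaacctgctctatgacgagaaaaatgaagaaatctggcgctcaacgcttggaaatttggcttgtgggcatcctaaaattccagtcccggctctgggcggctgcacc
Rfc5: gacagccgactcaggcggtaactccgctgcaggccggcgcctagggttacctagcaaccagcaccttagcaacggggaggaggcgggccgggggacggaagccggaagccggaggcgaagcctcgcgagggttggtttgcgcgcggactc

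The genes that hold the E2F letters had a slightly lower median diet difference than those without them, a contrast that was not tested. The 14 with the letters had a median log2 difference of 0.11 (range -0.09 to 0.19), and the 18 without them had a median of 0.14 (range -0.02 to 0.33). None of the 7 genes with an unadjusted p under 0.05 for diet, described next, holds them. Of the 8 genes called on day 14, described further below, Lig1 and Cdc6 hold them and the others do not. A match is a string of letters and not a measured binding site, and a window without one says nothing of the factor.

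Across the time course, replication genes stood slightly higher with heme, without any gene passing the test. In the fit of the 4 heme pools against the 5 control pools, 34 of the 37 had a positive difference and 3 a negative one, against 49.0% of all genes positive. The median difference was 0.112 (range -0.09 to 0.33), against -0.002 over all genes tested, whose quartiles lay at -0.074 and 0.070. None of the 37 was called by limma, while 0.595% of all genes tested were called higher, and the smallest adjusted p was 0.172. At an unadjusted p under 0.05, 7 of the 37 were higher (18.9%, against 8.39% of all genes) and 0 were lower. They were Rfc5, Tk1, Rrm1, Pcna, Fen1, Rrm2 and Cdc45. With the day as a block, 13 of the 37 passed the unadjusted p (35.1%, against 7.6% of all genes) and again none was called.

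The count of 7 rests on single pools. Leaving out 1 heme pool gave 3 (day 14), 4 (day 7) or 15 (day 4). In those fits 1639, 2116 and 2921 of all 14953 genes passed in either direction, against 2547 with all pools. Leaving out 1 control pool gave 15 (day 14) or 4 (day 4 or 7). Of all genes, 2135 passed in either direction without control day 14, 2226 without day 4 and 1985 without day 7. The median difference was 0.059 without the heme pool of day 14 and 0.157 without the control pool of day 14.

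**Figure D1:**
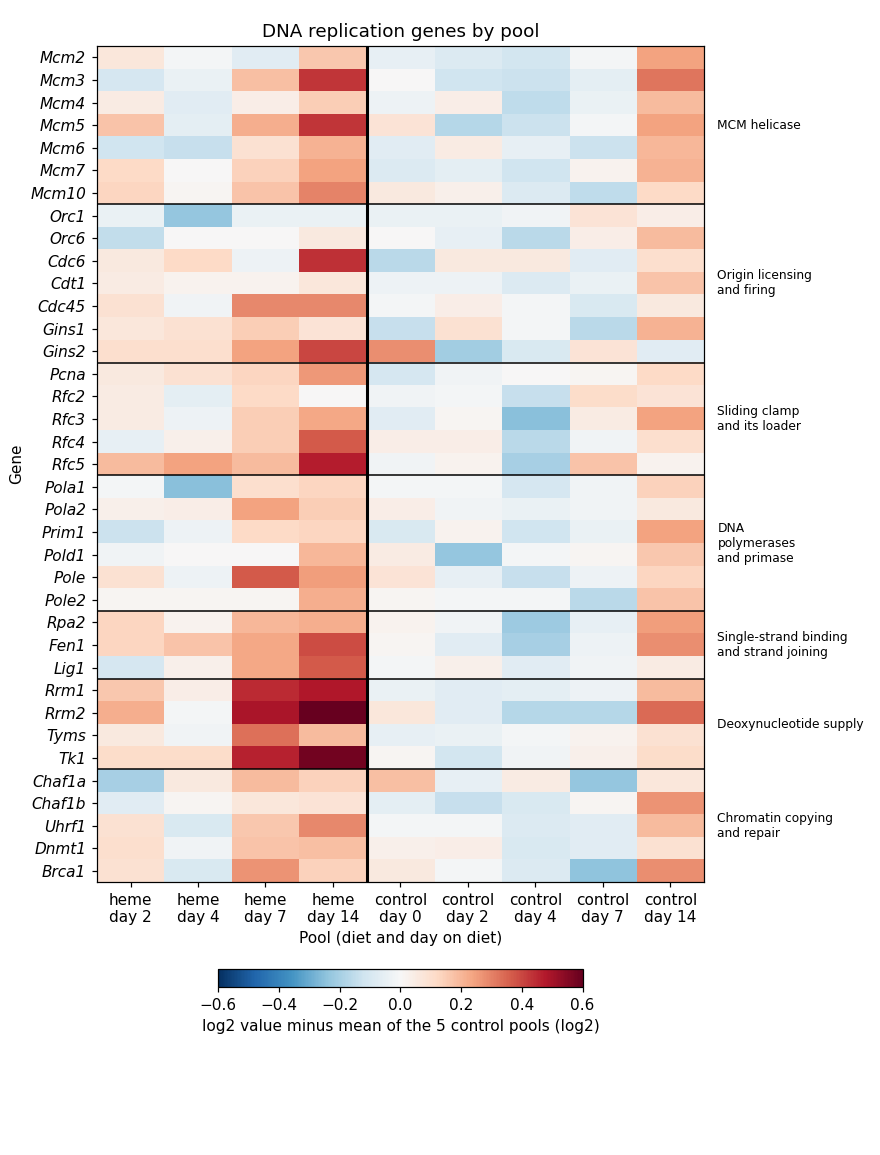
Level of each of the 37 replication genes in each pool, as the log2 value minus the gene's mean over the 5 control pools, with the 4 heme pools at the left and the control pools at the right and the genes down the page by role. The columns of heme day 7 and heme day 14 and of control day 14 are mostly above 0, with medians of 0.16, 0.22 and 0.17, and that of control day 4 is mostly below it, with a median of -0.08.

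Set against the control pool of its own day, the heme pool was higher for 16 of the 37 genes on all 4 days (43.2%, against 10.9% of all genes). The median same-day difference was 0.07 on day 2, 0.09 on day 4, 0.21 on day 7 and 0.09 on day 14. On those days 28, 30, 33 and 24 of the 37 genes were higher in the heme pool. A single gene, Rfc5, had every heme pool above every control pool (2.7% of the 37, against 3.26% of all genes). That count was 7 without the control pool of day 14 (against 4.3% of all genes), 4 without the heme pool of day 4 (against 5.4%) and 2 without the control pool of day 0 (against 4.07%).

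The helicase stood in the middle of the groups by median diet difference. The 7 genes of the MCM group, which includes Mcm10, the factor that helps the loaded helicase start, had a median diet difference of 0.11, with 0 of 7 at an unadjusted p under 0.05. Mcm5, a subunit of the ring, had the highest. It stood at 7.32, 7.09, 7.37 and 7.58 in the heme pools of days 2, 4, 7 and 14, against 7.23, 6.98, 7.02, 7.14 and 7.39 in the control pools of days 0, 2, 4, 7 and 14, and values of other genes follow in the same order of days. Each heme pool lay above the control pool of its day, but the control pool of day 14 lay above 3 of the 4 heme pools (difference 0.19, SE 0.11, adjusted p = 0.372).

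Mcm6, another subunit of the same ring, had the lowest. Its levels were 8.26, 8.24, 8.47 and 8.59 in the heme pools and 8.31, 8.43, 8.33, 8.25 and 8.58 in the control pools, so the groups overlapped over nearly their whole range (difference 0.01, SE 0.09, adjusted p = 0.974). The day 14 pools of both diets were the highest of their groups. The other members of the group, Mcm2, Mcm3, Mcm4, Mcm7 and Mcm10, had diet differences of 0.04 to 0.16. The MCM genes had their highest control pool at day 14, which exceeded the mean of the other 4 control pools by a median of 0.27.

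Origin licensing and firing gave 7 genes with differences in both directions, 5 higher and 2 lower, and a median of 0.10. Gins2, a subunit of the GINS complex that completes the active helicase, had the highest difference. It stood at 6.84, 6.84, 6.98 and 7.14 in the heme pools and at 7.02, 6.53, 6.65, 6.82 and 6.67 in the control pools, where day 0 lay above 3 of the 4 heme pools (difference 0.21, SE 0.10, adjusted p = 0.312). Cdc45, the partner of GINS in that helicase, had 6.64, 6.53, 6.84 and 6.84 in the heme pools and 6.54, 6.59, 6.54, 6.46 and 6.61 in the control pools. Its heme pools of days 2, 7 and 14 were above every control pool and that of day 4 was not (difference 0.17, SE 0.07, unadjusted p = 0.0387, adjusted p = 0.278).

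Orc1, the largest subunit of the origin recognition complex, was the gene with the lowest diet difference of all 37. It stood at 5.82, 5.63, 5.82 and 5.82 in the heme pools and at 5.82, 5.82, 5.84, 5.94 and 5.90 in the control pools. The heme pool of day 4 was the low one and the other heme pools sat at the bottom edge of the control range (difference -0.09, SE 0.06, adjusted p = 0.422). Cdc6, the loader that joins ORC, had 6.29, 6.35, 6.20 and 6.67 in the heme pools and 6.07, 6.29, 6.29, 6.16 and 6.33 in the control pools. Its heme pool of day 14 stood clear of all other pools and the rest overlapped (difference 0.15, adjusted p = 0.411).

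The sliding clamp and its loader were higher by a median of 0.12, with 2 of 5 genes at an unadjusted p under 0.05. Rfc5, a small subunit of the loader (probeset 10533090, chr5:117379145-117389023), had 7.98, 8.03, 7.98 and 8.26 in the heme pools and 7.77, 7.81, 7.59, 7.96 and 7.81 in the control pools. Its lowest heme pool was just above its highest control pool (difference 0.27, SE 0.08, a 1.21-fold difference, unadjusted p = 0.00657, adjusted p = 0.172). Rfc2, a subunit of the same loader, had 8.30, 8.19, 8.37 and 8.25 in the heme pools and 8.23, 8.24, 8.11, 8.36 and 8.33 in the control pools, with full overlap (difference 0.02, SE 0.06, adjusted p = 0.840).

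Pcna, the clamp itself, had 9.82, 9.85, 9.89 and 10.02 in the heme pools and 9.66, 9.74, 9.76, 9.77 and 9.88 in the control pools. The heme pools lay above the control pools of the same day, and the control pool of day 14 lay within the heme range (difference 0.13, SE 0.05, unadjusted p = 0.0249, adjusted p = 0.250). A second Pcna probeset gave a difference of 0.135. Which of the Pcna locus and its pseudogenes each probeset reads was not tested. Rfc4, another loader subunit, had 7.69, 7.77, 7.89 and 8.11 in the heme pools and 7.78, 7.78, 7.58, 7.72 and 7.84 in the control pools, with the heme pools of days 7 and 14 highest (difference 0.12, adjusted p = 0.435).

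Polymerases and primase had the smallest median of the 7 groups, 0.06, with 0 of 6 genes at an unadjusted p under 0.05. Pole, the catalytic subunit of the leading-strand polymerase, had 6.24, 6.12, 6.52 and 6.40 in the heme pools and 6.23, 6.10, 6.01, 6.12 and 6.28 in the control pools. Its heme pools of days 7 and 14 were above all control pools, and those of days 2 and 4 lay inside their range (difference 0.17, SE 0.09, adjusted p = 0.338). Pola1, the catalytic subunit of the polymerase that extends primers, had 6.94, 6.70, 7.05 and 7.08 in the heme pools and 6.94, 6.94, 6.85, 6.93 and 7.09 in the control pools. Here the heme pool of day 4 was the lowest of all and the groups overlapped (difference -0.01, SE 0.08, adjusted p = 0.969).

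Single-strand binding and strand joining gave 3 genes, all with a positive difference. Fen1, the nuclease that trims the flaps of Okazaki fragments, had 6.77, 6.81, 6.87 and 7.03 in the heme pools and 6.65, 6.57, 6.44, 6.61 and 6.92 in the control pools. All heme pools exceeded the control pools other than day 14, which lay among them (difference 0.23, SE 0.09, unadjusted p = 0.0287, adjusted p = 0.259). Lig1, the ligase that seals those fragments, had 7.48, 7.61, 7.81 and 7.95 in the heme pools and 7.57, 7.61, 7.51, 7.56 and 7.63 in the control pools. Its heme pool of day 2 was the lowest of all pools and those of days 7 and 14 were the highest (difference 0.14, SE 0.08, adjusted p = 0.401).

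Deoxynucleotide supply was the group with the highest median, 0.30, and 3 of its 4 genes had an unadjusted p under 0.05. Its leading genes, with the gene coordinates RefSeq gives for GRCm38.p6, are Rrm2 (probeset 10394978, chr12:24708254-24714146), Rrm1 (probeset 10555695, chr7:102441695-102469771) and Tk1 (probeset 10582809, chr11:117815519-117826087). Rrm2, the small subunit of ribonucleotide reductase, whose level is known to follow S phase, had 7.20, 6.97, 7.47 and 7.58 in the heme pools and 7.05, 6.91, 6.81, 6.81 and 7.32 in the control pools. The control pool of day 14 lay above the heme pools of days 2 and 4, so the groups overlapped (difference 0.33, SE 0.14, a 1.26-fold difference, unadjusted p = 0.0385, adjusted p = 0.278). Rrm1, the large subunit, had 8.90, 8.78, 9.19 and 9.22 in the heme pools and 8.70, 8.67, 8.68, 8.71 and 8.93 in the control pools. Its overlap came from the control pool of day 14, since every heme pool was above the other control pools (difference 0.29, SE 0.09, a 1.22-fold difference, unadjusted p = 0.0127, adjusted p = 0.211).

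Tk1, the thymidine kinase of the salvage route, had 7.20, 7.20, 7.55 and 7.67 in the heme pools and 7.10, 6.98, 7.07, 7.12 and 7.20 in the control pools. The heme pools of days 7 and 14 stood well above all control pools, and those of days 2 and 4 were at the level of the highest (difference 0.31, SE 0.10, a 1.24-fold difference, unadjusted p = 0.0103, adjusted p = 0.196). A second Tk1 probeset gave a difference of 0.242, and which locus, the gene or a copy of it, each of the 2 reads was not tested. With the 2 probesets averaged, limma gave a difference of 0.28 (unadjusted p = 0.0303). Tyms, which makes thymidylate from deoxyuridylate, had 7.72, 7.64, 7.99 and 7.85 in the heme pools and 7.61, 7.62, 7.65, 7.68 and 7.75 in the control pools, with the heme pool of day 7 highest (difference 0.14, SE 0.07, adjusted p = 0.328).

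The genes that restore chromatin and repair breaks behind the fork had a median of 0.10, with 0 of 5 at an unadjusted p under 0.05. Uhrf1, which recruits the maintenance methyltransferase Dnmt1 to copied DNA, had 7.27, 7.09, 7.34 and 7.47 in the heme pools and 7.17, 7.17, 7.10, 7.11 and 7.37 in the control pools. The control pool of day 14 lay between the 2 highest heme pools (difference 0.11, SE 0.08, adjusted p = 0.470). Chaf1b, a subunit of the histone chaperone CAF-1, had 6.72, 6.80, 6.86 and 6.87 in the heme pools and 6.73, 6.65, 6.70, 6.80 and 7.06 in the control pools, of which day 14 was the highest pool of all (difference 0.02, SE 0.08, adjusted p = 0.888). Chaf1a, the large subunit of the same chaperone, had 5.83, 6.09, 6.22 and 6.17 in the heme pools and 6.21, 5.98, 6.08, 5.80 and 6.10 in the control pools, with no separation (difference 0.04, adjusted p = 0.823).

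**Figure D2:**
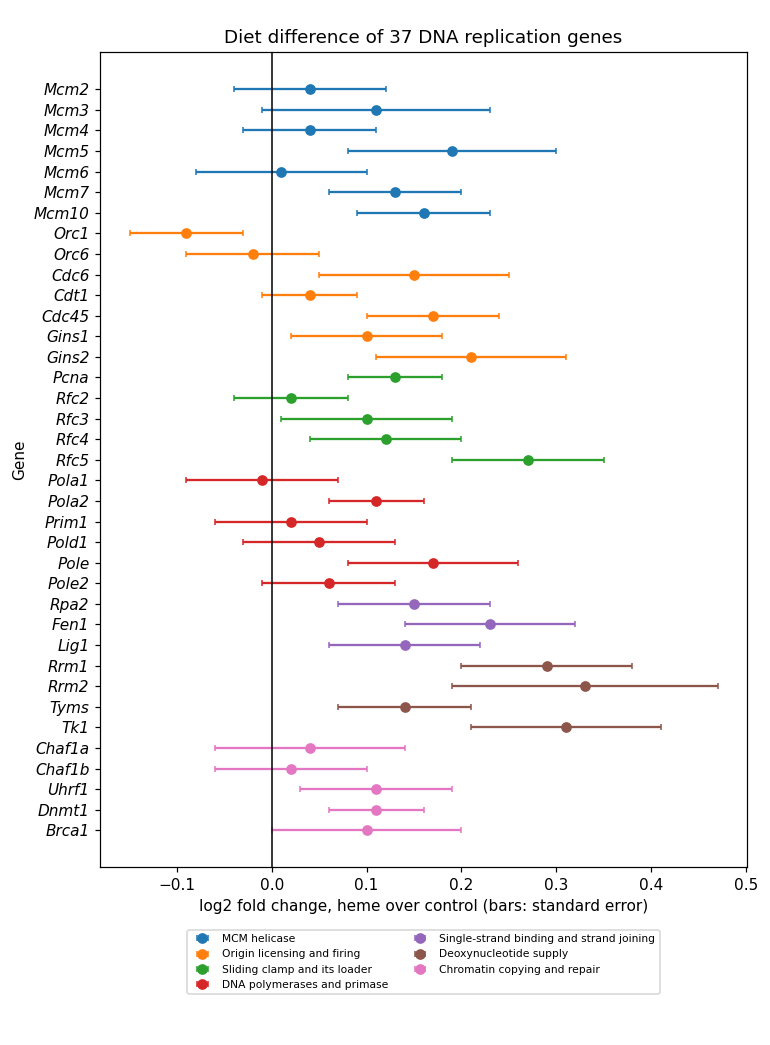
Log2 difference of the 4 heme pools minus the 5 control pools for each of the 37 genes, with points for the fitted difference and bars for its standard error, grouped by role. Rrm2, Tk1 and Rrm1 lie furthest to the right at 0.33, 0.31 and 0.29, Rfc5 follows at 0.27, and Orc1 lies furthest to the left at -0.09.

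By day, the differences from the 5 control pools were small on days 2 and 4 and larger on days 7 and 14. The median over the 37 genes was 0.06 on day 2, 0.01 on day 4, 0.16 on day 7 and 0.22 on day 14. On day 2, limma called 0 of all genes (0%, with 1385 at an unadjusted p under 0.05), and 26 of the 37 had a positive difference. On day 4 it also called 0 (0%, with 1051 at an unadjusted p under 0.05), and 19 of the 37 were positive. At an unadjusted p under 0.05, 2 of the 37 were lower on day 4 (5.41%, against 2.9% of all genes), namely Orc1 (difference -0.23) and Pola1 (difference -0.25).

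On day 7, 33 of the 37 genes had a positive difference, and the deoxynucleotide group led with a median of 0.46. None of the 37 was called, while 0.876% of all genes, 131 of 14953, were called higher on that day. With any 1 control pool left out, 3 to 38 of all genes were called higher and again none of the 37. At an unadjusted p under 0.05, 8 of the 37 were higher (21.6%, against 6.87% of all genes), namely Cdc45, Pola2, Pole, Lig1, Rrm1, Rrm2, Tyms and Tk1. Tk1 came nearest to a call (difference 0.46, adjusted p = 0.058), followed by Tyms (difference 0.33, adjusted p = 0.0654) and Rrm1 (difference 0.45, adjusted p = 0.0842). Without the control pool of day 14 the count of 8 was 17. All 10 smooth muscle genes also had a positive difference in the heme pool of day 7, with a median of 0.74, although none was called. They averaged 8.52 in that pool and 9.09 in the control pool of day 7, and their part in the values of the replication genes was not tested.

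On day 14, 8 of the 37 genes rose, from the loading of the helicase to the joining of strands. They were Tk1 (difference 0.57, adjusted p = 0.00812), Lig1 (0.37, adjusted p = 0.00919), Rrm1 (0.48, adjusted p = 0.0186), Cdc45 (0.30, adjusted p = 0.026), Cdc6 (0.45, adjusted p = 0.0291), Rfc4 (0.37, adjusted p = 0.0344), Rfc5 (0.47, adjusted p = 0.0358) and Pcna (0.26, adjusted p = 0.0459). None fell. This is 21.6% of the 37 called higher, against 11.3% of all genes called higher, and 0% called lower, against 15.8% of all genes. At an unadjusted p under 0.05, 17 of the 37 were higher (45.9%, against 18.6% of all genes). The heme pool of day 14 is 1 array, assumed to vary like the control pools. The share of all genes called also changes when a control pool is left out. Counts of the 37 from such fits, given below, are therefore not measured against a fixed share.

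In folds, Tk1 was 1.49-fold, Rrm1 1.40-fold and Rfc5 1.38-fold higher in the heme pool of day 14 than in the control pools. Rrm2 had a larger difference, 0.60, that was not called (adjusted p = 0.0645). Of the 8 calls, Lig1, Tk1 and Rrm1 held when each control pool in turn was left out, and Cdc45 held in 4 of those 5 fits. Cdc6, Rfc4 and Rfc5 held in 2 of the 5 and Pcna in 1 of the 5. The count of 8 was 4 without the control pool of day 0 or day 2, 5 without that of day 7 and 15 without that of day 14. With the arrays quantile-normalized again it was 16 (43.2%, against 11.3% of all genes).

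**Figure D3:**
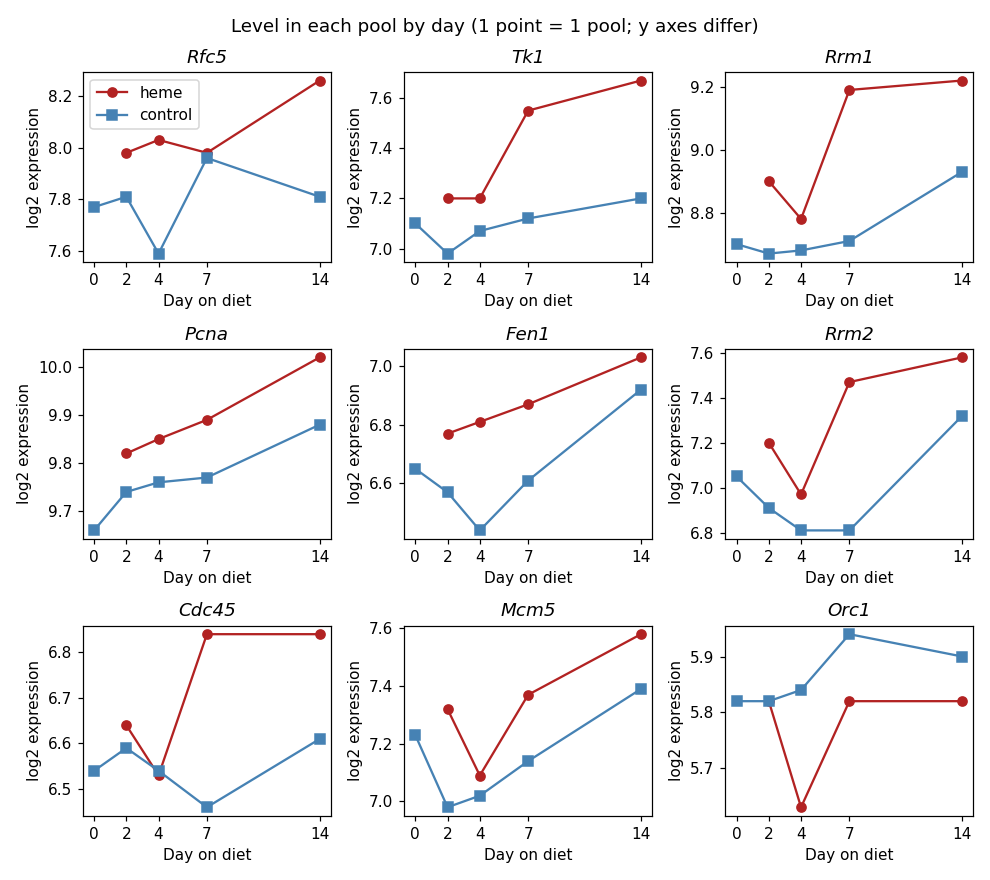
Log2 level by day on the diet for 9 replication genes, with the heme pools and the control pools as separate lines and each point 1 pool. Tk1 reaches 7.55 and 7.67 in the heme pools of days 7 and 14 while its control pools stay at or below 7.20, and Orc1 dips to 5.63 in the heme pool of day 4.

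A test of whether the diet difference was larger late (days 7 and 14) than early (days 2 and 4) called no gene. Limma called 0 of all genes (0%, with 990 at an unadjusted p under 0.05), and the smallest adjusted p among the 37 was 0.699. The median late-minus-early difference of the 37 was 0.089, against -0.028 over all genes, with 25 positive and 12 negative. The 3 highest were Chaf1a at 0.31, Lig1 at 0.30 and Cdc45 at 0.28. At an unadjusted p under 0.05, 3 of the 37 were higher late (8.11%, against 2.05% of all genes), namely Lig1, Cdc45 and Tk1. Single pools decide these values. Without the control pool of day 7 the median was -0.008, with 17 positive, and 0 were higher and 1 lower at an unadjusted p under 0.05. The median was 0.009, with 19 positive, without the heme pool of day 14. It was 0.199, with 29 positive and 8 at an unadjusted p under 0.05, without the control pool of day 14. Without the control pool of day 2 or day 4, or the heme pool of day 2, 4 or 14, the count of 3 was 1.

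The control pools themselves moved for these genes. The control pool of day 14 was the highest control pool for 32 of the 37 (86.5%, against 21.3% of all genes). It exceeded the mean of the other 4 control pools by a median of 0.21 (range -0.09 to 0.43), against 0.00 over all genes. The control pool of day 4 was the lowest control pool for 19 of the 37 (51.4%, against 25% of all genes). The heme pool of day 14 was the highest heme pool for 29 of the 37 (78.4%, against 32.3% of all genes), and exceeded the mean of the other 3 heme pools by a median of 0.17.

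Set against the control pool of its own day, the heme pool of day 14 differed by a median of 0.09 over the 37 genes, with 24 higher and 13 lower. Of the 8 genes called on day 14, Tk1 was 0.47 above that one control pool, Rfc5 0.45, Cdc6 0.35, Lig1 0.32, Rrm1 0.29, Rfc4 0.27, Cdc45 0.23 and Pcna 0.14. These are differences between single arrays, with no test.

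A slope on the logarithm of the day over the 5 control pools was positive for 33 of the 37 genes, with a median of 0.035. Limma called 0 of all genes (0%, with 1073 at an unadjusted p under 0.05). At an unadjusted p under 0.05, 1 of the 37 had a rising slope (2.7%, against 4.05% of all genes), namely Pcna (slope 0.049, unadjusted p = 0.00687, adjusted p = 0.677). With the day itself in place of its logarithm, 9 of the 37 had a rising slope at an unadjusted p under 0.05. Of all 14953 genes, 1125 passed in either direction in that fit. With the logarithm but without the control pool of day 0, 8 of the 37 had a rising slope, with 950 of all genes passing in either direction. The count was 3 without the control pool of day 4 (985 of all genes in either direction) and 2 without that of day 7 (819 of all genes). Without the control pool of day 14 the slope was positive for 14 of the 37, with a median of -0.013. In that fit 1 of the 37 rose and 3 fell at an unadjusted p under 0.05, with 751 of all genes passing in either direction.

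Markers of some other cell types were also high in the same control pool. Fibroblast genes averaged 7.27 to 8.21 over the heme pools and 7.40 to 8.58 over the control pools, with control day 14 the highest. Macrophage and granulocyte genes averaged 5.81 to 6.31 over the heme pools and 5.92 to 6.38 over the control pools, and B and plasma cell genes 5.64 to 6.07 and 5.84 to 6.21, with control day 14 again the highest. Other lists did not peak there. T and NK cell genes had their lowest control average in that pool, 5.58, against 5.67 at the highest. Smooth muscle genes averaged 8.02 in it, against 9.09 in the control pool of day 7. Array values have no true zero, so no marker is at 0. Their part in the level of the replication genes in that pool was not tested.

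Lists of genes that act next to the 37 had median diet differences of -0.01 to 0.19, and some of their genes had higher differences than any of the 37. Of all genes tested, 8.39% were higher for diet at an unadjusted p under 0.05, and 2547 of 14953 passed in either direction. Of 33 further replication genes tested, none was called for diet and 9 were higher and 1 lower at that p, with a median of 0.08. The highest were Dbf4, the activating subunit of the kinase that fires origins, at 0.28, and Ticrr, an initiation factor, at 0.26. The lowest was Rfc1, the large subunit of the clamp loader, at -0.16. Of 14 E2F factors and cyclins of the G1 to S transition, none was called for diet, with a median of 0.07. At an unadjusted p under 0.05, 5 were higher, against the same 8.39% of all genes. Ccna2, the cyclin of S phase and G2, had the highest difference, 0.54 (adjusted p = 0.156).

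The share of all genes higher at an unadjusted p under 0.05, 8.39%, also stands beside each of the next lists. Of 16 S-phase checkpoint and recombination genes, none was called for diet and 5 were higher at an unadjusted p under 0.05, with a median of 0.12. Fancd2, of the Fanconi pathway of crosslink repair, was highest at 0.47 (adjusted p = 0.0841). Of 17 further nucleotide synthesis genes, 3 were higher and 1 lower at an unadjusted p under 0.05, with a median of -0.01. Of 12 histone supply and cohesion genes, 4 were higher at an unadjusted p under 0.05, with a median of 0.03, led by Asf1b, a histone chaperone, at 0.36. A list of 5 genes, meant for those that curb licensing or degrade its factors, had a median of 0.19. In it 2 were higher at an unadjusted p under 0.05. They were Cdca3, known instead for its part in mitotic entry, at 0.46, and Ccnf, an F-box protein whose targets include CDC6 and RRM2, at 0.45. Gmnn, which encodes geminin, the inhibitor of CDT1, was at 0.05.

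The 29 mitosis genes had a median diet difference of 0.41, against 0.112 for the 37 replication genes. None of the 29 was called for diet and all 29 were higher at an unadjusted p under 0.05, against 8.39% of all genes. The list was chosen with earlier results of these data known, so these counts describe it and are no independent test. All 29 were also higher than the control pool of the same day on each of the 4 days. Their mean level was 7.51, 7.44, 7.96 and 7.82 in the heme pools and 7.40, 7.24, 7.12, 7.17 and 7.39 in the control pools. The mean level of the 37 replication genes was 7.16, 7.12, 7.29 and 7.37 in the heme pools and 7.12, 7.08, 7.03, 7.08 and 7.28 in the control pools. On day 14, 22 of the 29 mitosis genes were called higher, against 11.3% of all genes, and the difference between the lists was not tested.

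Genes of the crypt base and progenitors mostly had negative differences. Of the 10 tested, 1 had a positive diet difference, with a median of -0.09, and none was called for diet. At an unadjusted p under 0.05, 2 were lower, while 2547 of all 14953 genes passed in either direction. On day 14, 4 of the 10 fell, with 15.8% of all genes called lower on that day, among them Sox9, a transcription factor of crypt progenitors, with a difference of -0.43 (adjusted p = 0.012). Their part in the level of the replication genes was not tested.

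**Figure D4:**
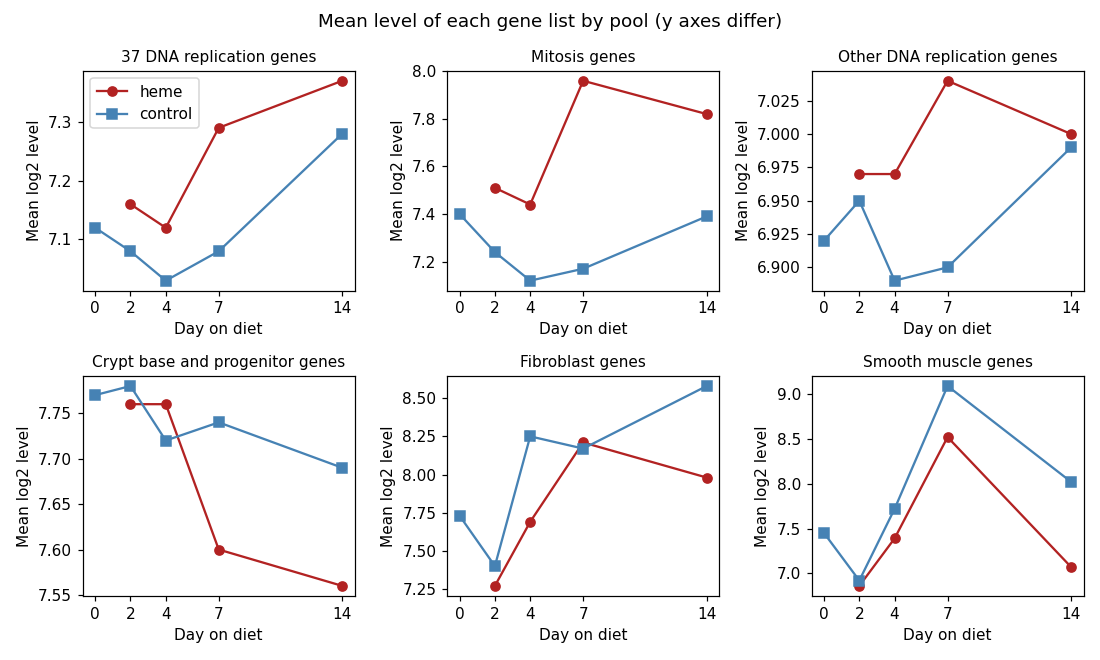
Mean log2 level of the 37 replication genes and of 5 other gene lists by day on the diet, with the heme pools and the control pools as separate lines. The replication genes reach 7.37 in the heme pool of day 14 and 7.28 in the control pool of day 14, while the mitosis genes reach 7.96 in the heme pool of day 7 and no more than 7.40 in any control pool.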

How the data were processed

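The authors deposited log2 expression, which they had summarised by probeset with RMA, per the submitters' processing notes. No version of RMA is given in the sources used here. RNA was pooled within a diet and day, per the labels' protocols. Medians of the arrays ran from 5.895 to 5.963 log2. Arrays have no read depth, and precision is limited by their number. RMA leaves tied values, and 5148 genes tested had an identical value in 2 or more control pools, 3 of them among the 37, which makes their spread look too small.

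Of 35556 probesets, 21789 had 1 gene symbol in the platform annotation, 1621 several and 12146 none. Of those with 1 symbol, 21698 matched the RefSeq table by Entrez ID. Each gene kept its probeset of highest mean, and genes with a mean at or above the 25th percentile (4.716 log2) were tested. Models were fitted with limma 3.58.1 (lmFit, eBayes with trend) in R 4.3.3. Python 3.11.15 prepared the tables and matplotlib 3.10.9 drew the figures. The fits were tested on simulated data.

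The diet fit used all 9 pools, each heme day was set against the 5 control pools, and late minus early used the 8 pools of shared days. Alternatives were the day as a block, other filters, averaged probesets, no trend, each pool left out, and, added after seeing the data, quantile normalization again. Heme and control pools share a day in the labels, and their deviations correlated with r = 0.66, 0.00, 0.30 and 0.20 on days 2, 4, 7 and 14. Pairs of unlike days gave r from -0.48 (heme day 2 with control day 14) to 0.40 (heme day 7 with control day 14). Apart from day 2, the same-day values thus lay within the range of the unlike days.

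The 37 genes and the other lists were chosen with earlier results of these data known. Per-pool values are printed for the highest and lowest diet difference of each role, for genes called in any comparison and for the 3 highest late-minus-early differences. Lists name up to 3 members at either end.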

Additional observations from a re-analysis of the deposited data

Results flagged for a closer look

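For 8 of 74 gene and diet groups, 1 pool stood far from the rest, with a gap to its nearest neighbour that was large against the range of its group by Dixon's criterion. Chance gives this in about 1 in 20 groups of independent, untied values, but these groups share the same 9 arrays. In 5 of the 8 the pool was the control pool of day 14, which was the highest for Mcm2 (7.85, next 7.60), Mcm3 (7.50, next 7.18), Cdt1, the licensing factor that loads the helicase (7.54, next 7.34), Rrm1 (8.93, next 8.71) and Uhrf1 (7.37, next 7.17). The heme pool of day 14 was the highest of its group for Pold1, the catalytic subunit of the lagging-strand polymerase (6.87, next 6.67), and for Pole2, the second subunit of the leading-strand polymerase (5.79, next 5.58). The heme pool of day 4 was the lowest for Orc1 (5.63, next 5.82). The remaining heme pools all read 5.82 for Orc1 and 5.58 for Pole2, so the gap makes up nearly the whole range.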

How the results depend on the processing

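Each result was refitted under the alternatives. No member was called for diet in any of them. With each pool left out in turn, genes called for diet ranged from 30 to 251 (100 with all pools), members higher at an unadjusted p under 0.05 from 3 to 15, genes called on day 2 from 0 to 16, genes called on day 7 from 8 to 67 (245 with all control pools), and members called on day 14 from 4 to 15. Without either day 14 pool, 0 genes were called for diet. With the arrays quantile-normalized again, 11 members were higher at an unadjusted p under 0.05 and 16 were called on day 14. With the day as a replicate block, which the shared days allow, 13 were higher at an unadjusted p under 0.05, and no call for a member changed. Without the filter on low values, 95 genes were called on day 7. The diet difference kept its sign in 561 of 586 pairs of member and setting, and 28 of the 37 never turned. It turned for Mcm6 with the replicate block (-0.01) and without the day 14 pools (-0.01), for Prim1 with the block (-0.0021), and after renewed quantile normalization for Orc6 (0.0093) and Pola1 (0.02). With a pool left out it ranged from -0.0016 to 0.10 for Mcm2, -0.06 to 0.06 for Mcm6, -0.06 to 0.02 for Orc6, -0.01 to 0.05 for Rfc2, -0.05 to 0.07 for Pola1, -0.02 to 0.08 for Prim1, -0.0047 to 0.09 for Pold1, -0.01 to 0.13 for Chaf1a and -0.01 to 0.09 for Chaf1b. The cause was not tested. With 1 array per diet and day, differences below the spread between control pools were not detectable.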
